A study of Mus musculus with 24 samples.

Results

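The comparison set 6 MxCre floxed leukaemia libraries against 6 VavCre floxed leukaemia libraries, 12 of the 24 libraries of the study. They were chosen by label alone: every library with floxed Arid1b or Arid2 alleles and the MxCre transgene on one side, and every such library with the VavCre transgene on the other. All were polyadenylated RNA from bone marrow leukaemia cells of moribund mice, secondary recipients of cells that carried the MLL-AF9 fusion, and all 24 libraries carried a Cre transgene. The MxCre floxed group held 3 libraries of a set titled A2 and 3 of a set titled A1b. The VavCre floxed group held 3 libraries with Arid1b fl/fl alleles and 3 with Arid2 fl/fl alleles. The 12 control libraries had the same Cre transgenes and unfloxed alleles, 6 with MxCre and 6 with VavCre. Recipients of MxCre cells, control cells included, were given pIpC, a double-stranded RNA mimic, 3 times within a week at a dose of 12.5 µg per g of mouse, starting 21 days after transplantation. No pIpC is described for VavCre recipients. The Cre driver, the pIpC and any difference in when and where the alleles were deleted cannot be told apart in this comparison.

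The title and the cell type description of each MxCre set name opposite genes: libraries titled A2 are called Arid1b in the description, and libraries titled A1b are called Arid2. Each Cre group holds 1 set for each gene whichever label is right, so the comparison weighs both genes equally. The labels give neither the mouse strain, nor the age of the mice, nor whether the libraries of a group came from separate primary leukaemias. The p-values of the main fit measure the spread between the libraries within a set. They do not include the spread between sets with the same Cre.

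MLL-AF9 is a fusion of the histone methyltransferase MLL with AF9 that turns myeloid progenitors into acute leukaemia cells and keeps genes such as Hoxa9 and Meis1 active. SWI/SNF complexes move nucleosomes with the energy of ATP. Arid1b is a subunit of their BAF form and Arid2 of their PBAF form, and both proteins bind DNA. Vav-driven Cre acts in blood cells from early development on. The Mx1 promoter that drives MxCre is silent until interferon or pIpC switches it on, so that deletion here starts in the recipient, after transplantation.

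MxCre floxed libraries held 12069153 to 26240568 counts and VavCre floxed libraries 17093477 to 37216225. Levels below are CPM, counts divided by scaled library sizes. In MxCre floxed 3 of the set titled A2, 13.56% of all counts fell on Rn45s, the ribosomal RNA precursor, against 0.2074 to 0.3522% in the other 11 floxed libraries. Relative to the mean of all 24 libraries, levels also fell off with gene length more in MxCre floxed 2 of the set titled A1b than in the other floxed libraries. The Spearman correlation across genes of length with the deviation from that mean, on a log2 scale, was -0.40 against -0.17 to 0.19. Kdm5d, a Y-linked gene, was above 10 CPM in 4 of 6 MxCre floxed and in 1 of 6 VavCre floxed libraries. The first principal component of all 24 libraries, with 30.68% of the variance, ran from -78.4 to 34.5 in MxCre floxed and from 19.6 to 81 in VavCre floxed libraries. Markers of myeloid leukaemia cells (Ptprc, Itgam, Cd33, Fcgr3, Csf1r, Csf3r, Mpo, Kit, Hoxa9 and Meis1) were detected, and 0 of the 10 were called in the comparison. Their summed level was 2715 to 13040 CPM in MxCre floxed and 2136 to 9878 CPM in VavCre floxed libraries.

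Transcripts of both targeted genes were present in the floxed libraries of either Cre line. Arid1b was at 183, 181 and 169 CPM in the MxCre floxed set titled A2 and 262, 55.7 and 253 CPM in that titled A1b, against 140, 184 and 169 CPM in VavCre Arid1b floxed and 238, 221 and 188 CPM in VavCre Arid2 floxed libraries. Arid2 was at 245, 348 and 274 CPM in the MxCre floxed set titled A2 and 404, 121 and 402 CPM in that titled A1b, against 271, 195 and 165 CPM in VavCre Arid1b floxed and 290, 281 and 197 CPM in VavCre Arid2 floxed libraries. The groups overlapped for both genes. The log2 fold change of MxCre floxed over VavCre floxed, with its standard error, was -0.03 ± 0.32, adjusted p = 0.955 for Arid1b (edgeR quasi-likelihood test). For Arid2 it was 0.36 ± 0.29, adjusted p = 0.428 by the same test. All adjusted p-values in the report are Benjamini-Hochberg adjusted over all genes tested. They are from this edgeR test, save those with the set as a random block, which are from limma voom. MxCre floxed 2 of the set titled A1b was lowest of the 12 for both genes. It was also the floxed library whose levels fell off most with gene length. Gene-level counts include reads from exons outside a deleted stretch, so these levels do not show whether the alleles were deleted.

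The floxed groups differed in 1304 of the 14099 genes tested (9.25%), at an adjusted p under 0.05. Of these, 852 genes (6.04%) were higher and 452 (3.21%) were lower in MxCre floxed libraries, and 692 changed more than 2-fold. The 6 MxCre floxed libraries all lay on 1 side of the 6 VavCre floxed libraries for 297 genes (2.11%, with 1.26% higher and 0.844% lower in MxCre floxed), 256 of them called. The number called depended on single libraries. It was 278 without VavCre Arid1b floxed 3 and 744 without floxed 4 of that set, 628 without VavCre Arid2 floxed 1, 545 without VavCre Arid2 floxed 2, 648 without MxCre titled A2 floxed 1, 681 without floxed 2 and 2601 without floxed 3 of that set. With a term for libraries above 10 CPM of the Y-linked Kdm5d it was 1067, and 810 of these were among the 1304. With the 12 floxed libraries alone it was 275, and with those and 1 mean per Cre line 162. A further fit to those 12 libraries, by limma voom with 1 mean per Cre line, treated the libraries of a set as a random block. At an estimated correlation of 0.07 it called 15, so that this count differs from 1304 in more than the block. Of the 18 gene lists below with 2 or more called members, 15 then had 0 and 3 had 1. In that fit 6 of the 83 named genes called kept their call: Rassf10, Socs1, Chac1, Ints4, Zfp318 and Ikzf1. Of the 83 named genes called, 28 kept their call whichever of the 12 floxed libraries was left out. Without VavCre Arid1b floxed 3, 29 of the 83 kept it, the fewest for any of the 12 libraries.

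**Figure D1:**
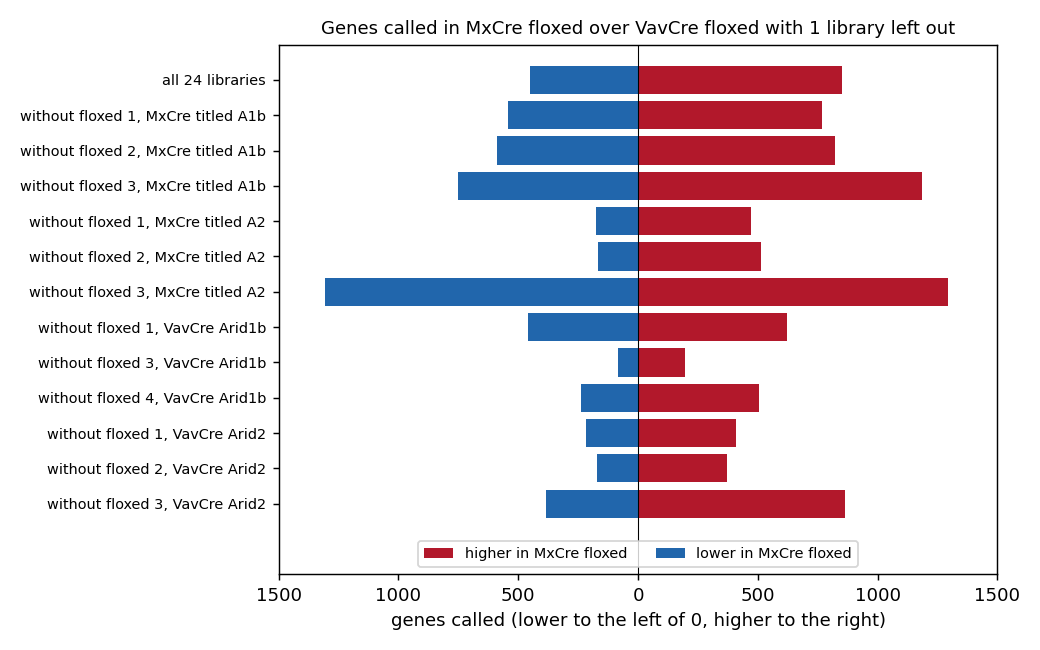
Number of genes called in MxCre floxed over VavCre floxed (x axis, lower genes to the left of 0 and higher genes to the right) with all 24 libraries and with each of the 12 floxed libraries left out (rows). The total ran from 278 genes without VavCre Arid1b floxed 3 to 2601 without MxCre titled A2 floxed 3.

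Cd63, Nudt4 and Ppp2cb were higher and Ints4, Zfp318 and Ikzf1 were lower in every MxCre floxed library than in any VavCre floxed library, and all 6 kept their call whichever floxed library was left out. Cd63, a tetraspanin of late endosomes and granules, was at 457, 475 and 249 CPM in the MxCre floxed set titled A2 and 335, 225 and 221 CPM in that titled A1b, against 65.7, 45.3 and 71.9 CPM in VavCre Arid1b floxed and 148, 84.96 and 141 CPM in VavCre Arid2 floxed libraries. The lowest MxCre floxed library was well above the highest VavCre floxed library. Cd63 had a log2 fold change of 1.88 ± 0.22, adjusted p = 0.00027. Nudt4, an enzyme that removes phosphate from inositol pyrophosphates, was at 136, 135 and 121 CPM in the MxCre floxed set titled A2 and 193, 191 and 188 CPM in that titled A1b, against 80.1, 92.02 and 98.5 CPM in VavCre Arid1b floxed and 78.2, 68.2 and 99.03 CPM in VavCre Arid2 floxed libraries. The groups did not overlap, the set titled A1b being higher than the set titled A2. Nudt4 had a log2 fold change of 0.88 ± 0.10, adjusted p = 0.00027. Ppp2cb, a catalytic subunit of protein phosphatase 2A, was at 257, 234 and 181 CPM in the MxCre floxed set titled A2 and 206, 290 and 277 CPM in that titled A1b, against 114, 96.2 and 104 CPM in VavCre Arid1b floxed and 147, 151 and 166 CPM in VavCre Arid2 floxed libraries. It rose in MxCre floxed libraries without overlap, by 0.92 ± 0.11, adjusted p = 0.00027 on the log2 scale.

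Ints4, a subunit of the Integrator complex that acts on RNA polymerase II transcripts, was at 69.5, 60.99 and 61.6 CPM in the MxCre floxed set titled A2 and 64.6, 67.8 and 81.3 CPM in that titled A1b, against 127, 145 and 130 CPM in VavCre Arid1b floxed and 87.4, 116 and 105 CPM in VavCre Arid2 floxed libraries. All 6 MxCre floxed libraries were below all 6 VavCre floxed libraries. Ints4 had a log2 fold change of -0.80 ± 0.10, adjusted p = 0.00027. Zfp318, a zinc finger protein known for its part in IgD expression in B cells, was at 20.9, 28.5 and 37.3 CPM in the MxCre floxed set titled A2 and 26.1, 19.4 and 19.1 CPM in that titled A1b, against 54.8, 84.98 and 68.8 CPM in VavCre Arid1b floxed and 52.2, 64.1 and 44.3 CPM in VavCre Arid2 floxed libraries. It was lower in MxCre floxed libraries without overlap, by a log2 fold change of -1.29 ± 0.19, adjusted p = 0.00271. Ikzf1 encodes Ikaros, a transcription factor needed for lymphoid development, and was picked out after its values were seen. It was at 359, 324 and 418 CPM in the MxCre floxed set titled A2 and 282, 244 and 323 CPM in that titled A1b, against 598, 678 and 577 CPM in VavCre Arid1b floxed and 505, 678 and 532 CPM in VavCre Arid2 floxed libraries. The lowest VavCre floxed library was above the highest MxCre floxed library. Ikzf1 had a log2 fold change of -0.88 ± 0.10, adjusted p = 0.00027. With the sets as a random block, Ints4, Zfp318 and Ikzf1 were among the 15 genes called, at an adjusted p of 0.0481, while Cd63, Nudt4 and Ppp2cb were not.

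**Figure D2:**
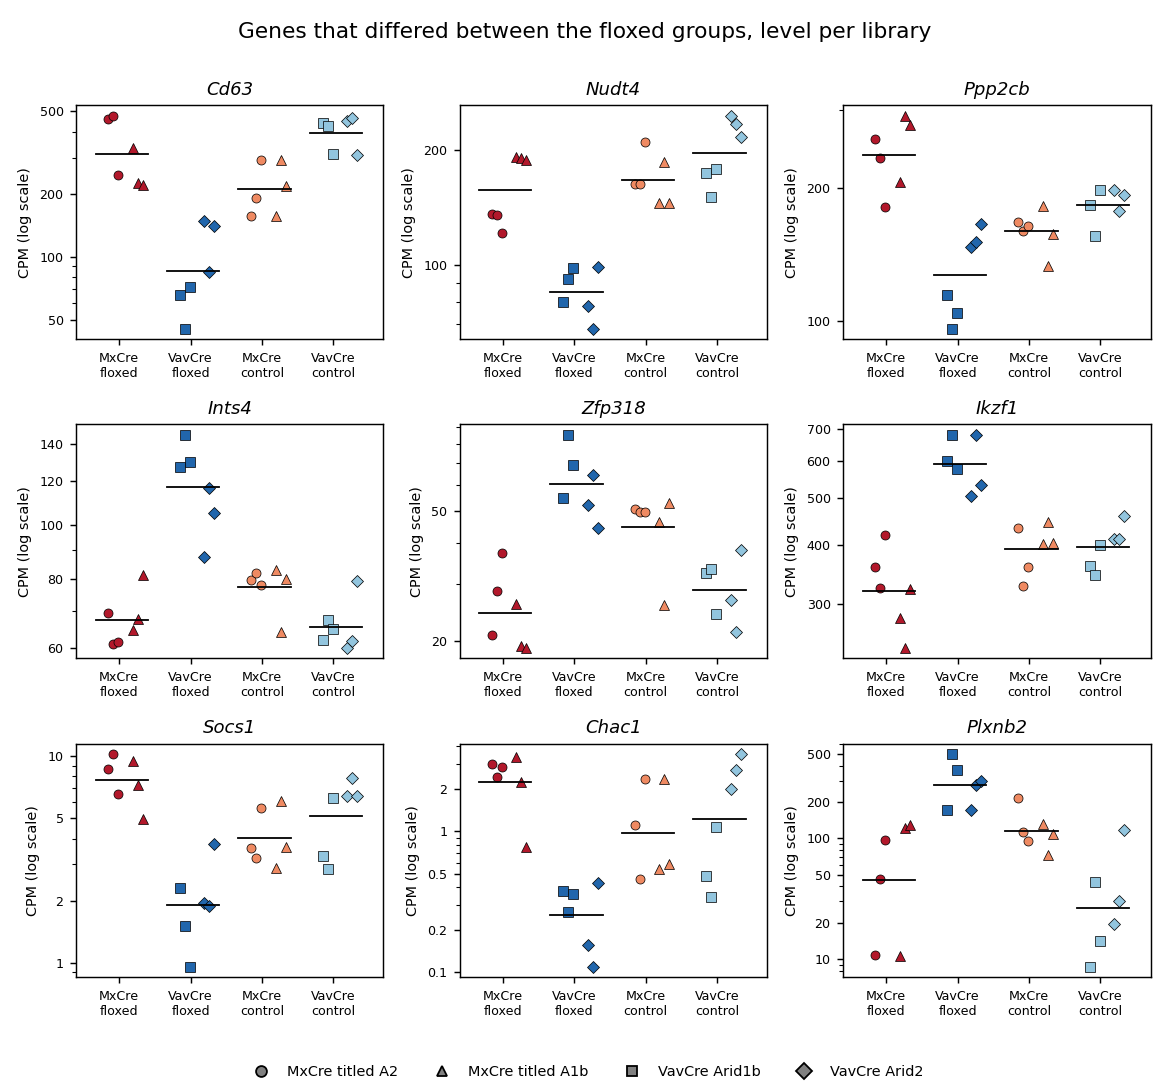
Level of 9 genes in each library (y axis, CPM on a log scale) in MxCre floxed, VavCre floxed, MxCre control and VavCre control libraries (6 points each, shapes mark the set, the line is the geometric mean). The 6 MxCre floxed libraries of Cd63, at 221 to 475 CPM, lie above the 6 VavCre floxed libraries, at 45.3 to 148 CPM.

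Each MxCre floxed set was also compared with each VavCre floxed set. Genes called in 1 direction in all 4 of these pairs numbered 3 (0.0213% of genes tested): Nudt4, Ints4 and Bai1. The pairs share sets, so that they are not independent. Bai1, an adhesion receptor that binds phosphatidylserine on dying cells, was at 57.8, 51.4 and 0.901 CPM in the MxCre floxed set titled A2 and 76.1, 14.9 and 28.04 CPM in that titled A1b, against 1.47, 0.487 and 1.38 CPM in VavCre Arid1b floxed and 0.26, 0.274 and 1.47 CPM in VavCre Arid2 floxed libraries. MxCre titled A2 floxed 3 lay among the VavCre floxed libraries and the other 5 MxCre floxed libraries were above all of them. Bai1 had a log2 fold change of 5.48 ± 0.87, adjusted p = 0.00333. The count of 3 was 0 without VavCre Arid1b floxed 3, VavCre Arid2 floxed 1 or 2 or MxCre titled A2 floxed 2, and 1 without VavCre Arid1b floxed 1 or 4 or MxCre titled A2 floxed 1. It was 13 without VavCre Arid2 floxed 3, 28 without MxCre titled A2 floxed 3 and 6 without MxCre titled A1b floxed 2 or 3. The pairs called 190 genes (1.35%, 0.887% higher and 0.461% lower) for the MxCre set titled A1b over VavCre Arid1b and 1049 (7.44%) for the set titled A2 over VavCre Arid1b. They called 535 (3.79%) for the set titled A1b over VavCre Arid2 and 77 (0.546%) for the set titled A2 over VavCre Arid2. Between sets with the same Cre, 10 genes (0.0709%, 0.0355% in each direction) were called for the MxCre floxed set titled A1b over that titled A2, and 92 (0.653%) for VavCre Arid1b floxed over VavCre Arid2 floxed. Of the 1304 genes called between the floxed groups, 1231 had the same sign in all 4 pairs and 486 were called in no single pair.

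Most genes of late neutrophil granules were higher in MxCre floxed libraries. Neutrophil precursors make primary granules, rich in proteases and myeloperoxidase, as promyelocytes, and secondary and tertiary granules as they mature. Of 18 secondary and tertiary granule genes tested, 12 rose, 0 fell and 6 did not pass the test, where 6.04% of all genes rose, with a median log2 fold change of 2.74 against 0.03 over all genes. With the set as a random block 0 of the 18 were called, with the 12 floxed libraries alone 3, and with those and 1 mean per Cre line 2. The 12 were Ltf, Camp, Ngp, Lcn2, Mmp9, S100a8, S100a9, Cd177, Cebpe, Itgb2l, Retnlg and Wfdc21. The groups did not overlap for 6 of the 18 members tested, where they did not for 2.11% of all genes. In the control comparison the median of the list was 0.13 and 0 members were called, where 0.00709% of all genes were.

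Retnlg, a resistin-like protein secreted by mouse neutrophils, was at 30.4, 30.9 and 62.4 CPM in the MxCre floxed set titled A2 and 11.9, 226 and 84.5 CPM in that titled A1b, against 1.42, 0.177 and 0.601 CPM in VavCre Arid1b floxed and 2.66, 0.274 and 0.427 CPM in VavCre Arid2 floxed libraries. The lowest MxCre floxed library was above the highest VavCre floxed library. Retnlg had a log2 fold change of 6.19 ± 1.00, adjusted p = 0.00342. Mmp9, a gelatinase of tertiary granules, was at 64.8, 50.7 and 292 CPM in the MxCre floxed set titled A2 and 133, 292 and 240 CPM in that titled A1b, against 22.9, 8.9 and 25.5 CPM in VavCre Arid1b floxed and 12.2, 2.5 and 9.64 CPM in VavCre Arid2 floxed libraries. It rose by 3.80 ± 0.66, adjusted p = 0.00468 on the log2 scale, without overlap. Ltf, the iron-binding lactoferrin of secondary granules, was at 263, 151 and 1483 CPM in the MxCre floxed set titled A2 and 169, 1668 and 318 CPM in that titled A1b, against 117, 5.27 and 27.1 CPM in VavCre Arid1b floxed and 52.7, 7.6 and 9.92 CPM in VavCre Arid2 floxed libraries. Its log2 fold change was 4.30 ± 1.09, adjusted p = 0.0227, and MxCre titled A2 floxed 3 and titled A1b floxed 2 were far above the other 4 MxCre floxed libraries. Retnlg, Mmp9 and Ltf were picked by a rule that required groups without overlap, so that their lack of overlap was set by the choice. S100a8, a subunit of calprotectin, was at 518 to 4489 CPM (median 1037) in MxCre floxed libraries, against 23.2 to 351 CPM (median 181) in VavCre floxed libraries, and rose by 3.35 ± 0.78, adjusted p = 0.0161 on the log2 scale without overlap. S100a9, its partner, was at 579 to 6145 CPM (median 1080) in MxCre floxed libraries, against 24.7 to 367 CPM (median 182) in VavCre floxed libraries. S100a9 had a log2 fold change of 3.60 ± 0.83, adjusted p = 0.0153. S100a8 and S100a9 were picked out after their values were seen. Cd177, a surface protein of neutrophils, was at 201 to 549 CPM (median 287) in MxCre floxed libraries, against 52.6 to 186 CPM (median 107) in VavCre floxed libraries. Cd177 had a log2 fold change of 1.58 ± 0.33, adjusted p = 0.0103. Cebpe, the transcription factor that drives secondary granule genes, averaged 129 ± 61.6 CPM in MxCre floxed and 61.7 ± 30.1 CPM in VavCre floxed libraries (SD, n = 6 each) and rose by 1.10, adjusted p = 0.0426.

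The count of 12 rested on several libraries. It was 3 without VavCre Arid1b floxed 3 and 6 without floxed 4 of that set, 7 without VavCre Arid2 floxed 1, 5 without VavCre Arid2 floxed 2, 7 without MxCre titled A1b floxed 2, and 5 without both this library and MxCre titled A2 floxed 3. Retnlg, Mmp9 and Cd177 kept their call whichever floxed library was left out, but not with the set as a random block (adjusted p = 0.0765, 0.0532 and 0.0780 with an estimated correlation). Promoter windows, from 250 bases before to 50 bases after the start of transcription on GRCm38.p6 (RefSeq), were on hand for 9 of the 12 genes. The letters TTNNGNAA, the loose core bound by C/EBP factors, were found on either strand in 8 of these 9 and in 40.7% of all 32851 windows.

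Of 9 primary granule genes, 2 (22.2%) rose and 0 fell, where 6.04% of all genes rose and 3.21% fell. All 9 had positive log2 fold changes, with a median of 1.18. Prtn3, the serine protease proteinase 3, was at 1707, 2408 and 826 CPM in the MxCre floxed set titled A2 and 1824, 2842 and 1546 CPM in that titled A1b, against 797, 494 and 1007 CPM in VavCre Arid1b floxed and 696, 532 and 1136 CPM in VavCre Arid2 floxed libraries. MxCre titled A2 floxed 3 lay within the VavCre floxed range. Prtn3 had a log2 fold change of 1.25 ± 0.29, adjusted p = 0.0157. Srgn, the proteoglycan core that packs granule proteases, was at 487 to 1041 CPM (median 874) in MxCre floxed libraries, against 335 to 609 CPM (median 391) in VavCre floxed libraries. Srgn had a log2 fold change of 0.98 ± 0.19, adjusted p = 0.00658. Mpo, myeloperoxidase, averaged 4422 ± 4293 CPM in MxCre floxed and 1796 ± 2465 CPM in VavCre floxed libraries (SD, n = 6 each) and did not pass the test (log2 fold change 1.30, adjusted p = 0.273), nor did Elane, neutrophil elastase (1.503, adjusted p = 0.0638). Called members numbered 1 without VavCre Arid1b floxed 3 and 4 without VavCre Arid2 floxed 3.

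**Figure D3:**
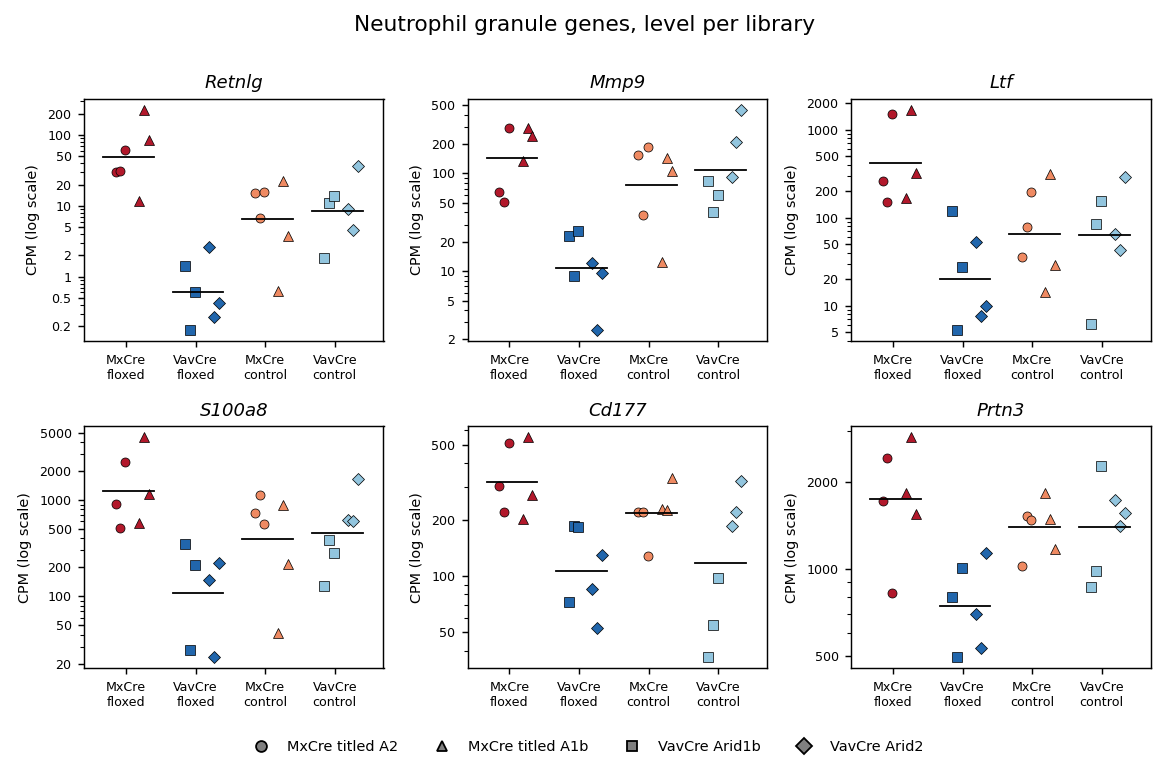
Level of 6 neutrophil granule genes in each library (y axis, CPM on a log scale) in MxCre floxed, VavCre floxed, MxCre control and VavCre control libraries (6 points each, shapes mark the set, the line is the geometric mean). Retnlg, Mmp9, Ltf, S100a8 and Cd177 do not overlap between MxCre floxed and VavCre floxed libraries, and Prtn3 does. The rule that picked Retnlg, Mmp9 and Ltf required no overlap, and S100a8 was picked after its values were seen.

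Among the 10 largest rises by the fixed rule, those outside the granule list were of mixed kind. Wdr65, a ciliary protein, was at 1.25 to 55.02 CPM (median 8.07) in MxCre floxed libraries, against 0 to 0.824 CPM (median 0.265) in VavCre floxed libraries. Wdr65 had a log2 fold change of 5.82 ± 1.43, adjusted p = 0.0197. Rassf10, a Ras association domain protein, was at 6.58 to 39.5 CPM (median 18.9) in MxCre floxed libraries, against 0.061 to 1.94 CPM (median 1.01) in VavCre floxed libraries, with 4.51 ± 1.00, adjusted p = 0.0136. Thbs1, the matrix glycoprotein thrombospondin, was at 11.5 to 133 CPM (median 26.3) in MxCre floxed libraries, against 0.961 to 6.38 CPM (median 3.76) in VavCre floxed libraries, with 3.64 ± 0.75, adjusted p = 0.00953. Il1f9, interleukin 36 gamma, was at 1.45 to 46.7 CPM (median 7.77) in MxCre floxed libraries, against 0.0823 to 1.44 CPM (median 0.317) in VavCre floxed libraries, with 4.10 ± 0.94, adjusted p = 0.0153. Stfa2 and Stfa3, cysteine protease inhibitors of a family of near-identical copies whose counts are uncertain, had log2 fold changes of 4.37 and 3.94. The groups did not overlap for these genes, since the rule required it. Thbs1 kept its call in all 12 repeats that left out a floxed library. Wdr65, Rassf10, Il1f9, Stfa2 and Stfa3 lost theirs without VavCre Arid1b floxed 3, Stfa2 also without VavCre Arid2 floxed 2, and Wdr65 also without VavCre Arid2 floxed 1 or 2.

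The 10 largest falls by the same rule included several receptors. Gpr124, an adhesion receptor that takes part in Wnt signalling in endothelium, was at 1.76, 2.58 and 5.27 CPM in the MxCre floxed set titled A2 and 0.778, 3.13 and 1.71 CPM in that titled A1b, against 5.76, 33.04 and 19.6 CPM in VavCre Arid1b floxed and 5.81, 7.95 and 41.1 CPM in VavCre Arid2 floxed libraries. Slc44a1, a choline transporter, was at 8.49, 5.56 and 12.8 CPM in the MxCre floxed set titled A2 and 2.01, 3.3 and 11.8 CPM in that titled A1b, against 35.6, 66.1 and 37.2 CPM in VavCre Arid1b floxed and 20.4, 61.4 and 18.4 CPM in VavCre Arid2 floxed libraries. The log2 fold change was -2.95 ± 0.53, adjusted p = 0.00526 for Gpr124 and -2.46 ± 0.48, adjusted p = 0.00745 for Slc44a1, and both kept their call whichever floxed library was left out. Plxnb2, a receptor for semaphorins, was at 10.9, 46.2 and 97.5 CPM in the MxCre floxed set titled A2 and 10.6, 122 and 128 CPM in that titled A1b, against 172, 499 and 369 CPM in VavCre Arid1b floxed and 172, 279 and 296 CPM in VavCre Arid2 floxed libraries. The 12 libraries separated, as the rule required for all 10 falls, but MxCre floxed libraries differed among themselves by more than 10-fold. Plxnb2 had a log2 fold change of -2.13 ± 0.61, adjusted p = 0.0369. Il6st, the shared signalling subunit gp130 of interleukin 6 family receptors, was at 5.73 to 84.9 CPM (median 42.3) in MxCre floxed libraries, against 94.6 to 280 CPM (median 165) in VavCre floxed libraries, with -2.03 ± 0.57, adjusted p = 0.0341. Il31ra, a related receptor subunit, was at 1.51 to 34.8 CPM (median 10.5) in MxCre floxed libraries, against 35.8 to 157 CPM (median 39.2) in VavCre floxed libraries, with -2.25 ± 0.65, adjusted p = 0.0391. Thbd, thrombomodulin, was at 13.3 to 87.05 CPM (median 39.7) in MxCre floxed libraries, against 148 to 260 CPM (median 167) in VavCre floxed libraries, with -1.99 ± 0.50, adjusted p = 0.0223. The other 4 were Frmd4b (-2.20, adjusted p = 0.0321), Ankrd37 (-1.71, adjusted p = 0.0158), the mitochondrial acetyl-CoA synthetase gene Acss1 (-1.51, adjusted p = 0.0133) and Cped1 (3.81 ± 1.74 CPM in MxCre floxed and 10.7 ± 3.79 CPM in VavCre floxed libraries, SD, n = 6 each, adjusted p = 0.0162). Leaving out 1 of 7 floxed libraries ended the calls of Plxnb2 and of Il6st, 1 of 9 that of Il31ra, 1 of 6 that of Frmd4b, and 1 of 3 that of Thbd. Ankrd37 and Acss1 kept theirs in all 12 repeats, and Cped1 lost it only without VavCre Arid1b floxed 3.

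Chac1, Slc7a11 and Asns, genes that amino acid shortage switches on, were higher in MxCre floxed libraries. When amino acids or cystine run short, or proteins misfold, cells translate the transcription factor ATF4, which with C/EBP partners binds an element in the promoters of genes such as Chac1, Asns and Slc7a11. Of 21 genes of the unfolded protein and amino acid stress list, 4 rose, 1 fell and 16 did not pass the test, with a median log2 fold change of 0.14, where 6.04% of all genes rose and 3.21% fell. With the set as a random block Chac1 alone was called (adjusted p = 0.0481 with an estimated correlation), against 0.0679 for Slc7a11 and 0.0856 for Asns. Chac1, which breaks down glutathione, was at 3.01, 2.43 and 2.84 CPM in the MxCre floxed set titled A2 and 3.37, 2.26 and 0.769 CPM in that titled A1b, against 0.378, 0.266 and 0.36 CPM in VavCre Arid1b floxed and 0.156, 0.11 and 0.427 CPM in VavCre Arid2 floxed libraries. Its groups did not overlap. Chac1 had a log2 fold change of 3.11 ± 0.52, adjusted p = 0.00372. Slc7a11, the cystine importer, was at 6.88, 2.43 and 2.29 CPM in the MxCre floxed set titled A2 and 1.95, 1.56 and 2.39 CPM in that titled A1b, against 0.236, 0.0886 and 0.12 CPM in VavCre Arid1b floxed and 0.807, 0.494 and 0.855 CPM in VavCre Arid2 floxed libraries. It rose without overlap by 3.05 ± 0.58, adjusted p = 0.00655 on the log2 scale. Asns, asparagine synthetase, was at 159, 123 and 18.9 CPM in the MxCre floxed set titled A2 and 93.6, 37.5 and 32.4 CPM in that titled A1b, against 10.02, 4.3 and 10.8 CPM in VavCre Arid1b floxed and 6.72, 9.63 and 26.8 CPM in VavCre Arid2 floxed libraries. The 2 groups met at MxCre titled A2 floxed 3, which was below VavCre Arid2 floxed 3. Asns had a log2 fold change of 2.76 ± 0.72, adjusted p = 0.0251.

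Atf4 itself averaged 235 ± 43.4 CPM in MxCre floxed and 169 ± 20.6 CPM in VavCre floxed libraries (SD, n = 6 each), a log2 fold change of 0.48, adjusted p = 0.0253. Herpud1, which acts in the disposal of misfolded proteins, fell (log2 fold change -0.31, adjusted p = 0.03). Trib3 and Ddit3, further genes downstream of ATF4, had log2 fold changes of 1.11 and 0.31 and did not pass the test (adjusted p = 0.316 and 0.241). Chac1 and Slc7a11 kept their call whichever floxed library was left out. Asns lost it without VavCre Arid1b floxed 3, VavCre Arid2 floxed 1 or 2, or MxCre titled A2 floxed 1 or 2. The count of called members in the list was then 2 in each of these cases.

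The promoters of the 3 genes that rose most in the list are shown because each holds the letters TGATGNAA, the core of the C/EBP-ATF element, on one strand or the other. This motif was found in 1304 of 32851 RefSeq windows (3.97%). The windows on GRCm38.p6 are chr2:119350992-119351291 on the plus strand, chr3:50443564-50443863 on the minus strand with 2 matches, and chr6:7693160-7693459 on the minus strand. Each is printed 5′ to 3′ on the strand of its gene, with the matches in capitals, and a match describes letters, not a bound site.
Chac1: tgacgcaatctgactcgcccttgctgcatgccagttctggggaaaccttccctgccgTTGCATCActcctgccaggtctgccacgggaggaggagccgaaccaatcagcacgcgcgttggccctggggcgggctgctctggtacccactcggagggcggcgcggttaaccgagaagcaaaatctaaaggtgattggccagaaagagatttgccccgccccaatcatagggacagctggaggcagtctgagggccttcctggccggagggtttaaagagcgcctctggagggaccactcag
Slc7a11: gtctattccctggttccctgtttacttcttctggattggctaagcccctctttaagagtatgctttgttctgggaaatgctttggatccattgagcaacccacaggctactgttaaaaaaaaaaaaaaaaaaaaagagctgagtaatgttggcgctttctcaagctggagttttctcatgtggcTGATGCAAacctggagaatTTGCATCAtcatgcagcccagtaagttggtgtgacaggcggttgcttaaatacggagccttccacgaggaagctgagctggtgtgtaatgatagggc
Asns: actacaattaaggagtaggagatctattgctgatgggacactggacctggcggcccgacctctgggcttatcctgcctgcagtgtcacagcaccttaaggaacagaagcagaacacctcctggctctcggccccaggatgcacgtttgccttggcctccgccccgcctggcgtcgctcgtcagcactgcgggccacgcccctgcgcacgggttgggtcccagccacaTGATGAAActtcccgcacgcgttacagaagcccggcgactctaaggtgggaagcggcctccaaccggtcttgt

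Socs1 and Cish, feedback inhibitors of cytokine signalling, were higher too. Cytokine and interferon receptors signal through JAK kinases and STAT factors, which switch on SOCS proteins that shut the receptors off. Of 17 tested genes of the list of signalling feedback and kinase genes, 3 (17.6%) rose, 2 (11.8%) fell and 12 did not pass the test (median log2 fold change -0.06). Of all genes, 6.04% rose and 3.21% fell. With the set as a random block Socs1 alone was called, at an adjusted p of 0.0481 with an estimated correlation, against 0.12 for Cish. Socs1, an inhibitor of JAK kinases, was at 8.69, 10.2 and 6.58 CPM in the MxCre floxed set titled A2 and 9.53, 7.29 and 4.96 CPM in that titled A1b, against 2.31, 1.51 and 0.961 CPM in VavCre Arid1b floxed and 1.95, 1.89 and 3.78 CPM in VavCre Arid2 floxed libraries. The lowest MxCre floxed library was above the highest VavCre floxed library. Socs1 had a log2 fold change of 1.96 ± 0.30, adjusted p = 0.00314. Cish, an inhibitor induced by STAT5, was at 26.9, 15.7 and 18.4 CPM in the MxCre floxed set titled A2 and 3.63, 5.47 and 3.76 CPM in that titled A1b, against 4.11, 2.61 and 2.88 CPM in VavCre Arid1b floxed and 2.53, 3.18 and 3.27 CPM in VavCre Arid2 floxed libraries. The set titled A2 was far above every VavCre floxed library, while the set titled A1b lay near their upper end. Cish had a log2 fold change of 1.59 ± 0.27, adjusted p = 0.00409. Pim1, a kinase also induced by STAT5, was at 250, 256 and 91.5 CPM in the MxCre floxed set titled A2 and 21.1, 50.5 and 57.9 CPM in that titled A1b, against 30.2, 50.2 and 60.7 CPM in VavCre Arid1b floxed and 19.04, 34.1 and 31.7 CPM in VavCre Arid2 floxed libraries. The set titled A2 was above every VavCre floxed library and the set titled A1b lay within their range. Pim1 had a log2 fold change of 1.35 ± 0.34, adjusted p = 0.0213. The genes that fell were Spry4, an inhibitor of Ras signalling (-2.95, adjusted p = 0.0445), and Ptpn11, the phosphatase SHP2 (-0.39, adjusted p = 0.0396). Socs1 and Cish kept their call whichever floxed library was left out. The called members of the list numbered 2 without VavCre Arid1b floxed 3, VavCre Arid2 floxed 1 or MxCre titled A2 floxed 1 or 2, and 3 without VavCre Arid1b floxed 4 or VavCre Arid2 floxed 2.

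Interferon response genes were of interest since MxCre is induced through interferon. Of 35 such genes tested, 6 (17.1%) rose, where 6.04% of all genes did, 0 fell and 29 did not pass the test, with a median log2 fold change of 0.74 against -0.02 in the control comparison. Called members numbered 0 with the set as a random block, 0 with the 12 floxed libraries alone and 2 with a term for libraries above 10 CPM of Kdm5d. Ddx58, the RNA sensor RIG-I, was at 10.9, 16.1 and 66.4 CPM in the MxCre floxed set titled A2 and 29.5, 9.72 and 11.6 CPM in that titled A1b, against 3.59, 3.06 and 8.59 CPM in VavCre Arid1b floxed and 5.65, 1.26 and 11.3 CPM in VavCre Arid2 floxed libraries, and rose by 2.05 ± 0.52, adjusted p = 0.0226 on the log2 scale. Oas1a, which makes the messenger that activates RNase L and has close copies, was at 11.3 to 30.6 CPM (median 20.9) in MxCre floxed libraries, against 1.54 to 12.7 CPM (median 7.72) in VavCre floxed libraries. Oas1a had a log2 fold change of 1.57 ± 0.39, adjusted p = 0.02. Iigp1, a GTPase that attacks parasite vacuoles, was at 0.151 to 4.8 CPM (median 1.64) in MxCre floxed libraries, against 0.0601 to 0.244 CPM (median 0.145) in VavCre floxed libraries, with 3.52 ± 0.91, adjusted p = 0.0238. The other 3 were Ifit2 (1.20, adjusted p = 0.0333), the chemokine gene Cxcl10 (2.71, adjusted p = 0.0403) and the kinase gene Eif2ak2 (0.52, adjusted p = 0.0334). Groups overlapped for all 6 genes.

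Mx1, whose promoter drives the Cre of the MxCre line, was at 1.51, 8.18 and 73.3 CPM in the MxCre floxed set titled A2 and 0.843, 18.8 and 16.5 CPM in that titled A1b, against 32.5, 48.9 and 45.8 CPM in VavCre Arid1b floxed and 17.9, 11.96 and 23.96 CPM in VavCre Arid2 floxed libraries. It did not pass the test (-0.60 ± 0.65, adjusted p = 0.57). Isg15 and Irf7, interferon-induced genes, had log2 fold changes of 1.77 and 0.74 and did not pass it either. Without MxCre titled A2 floxed 3, Mx1 was called lower in MxCre floxed libraries (-1.87, adjusted p = 0.0302 by edgeR). Without the VavCre Arid1b set its log2 fold change was 0.002. Of 15 genes of interferon signalling and RNA sensing, 1 (6.67%) rose (Socs1) and 2 (13.3%) fell, where 6.04% of all genes rose and 3.21% fell. Those that fell were Mavs, the adaptor that passes on the signal of RIG-I, at 19.99 to 40.5 CPM (median 27.4) in MxCre floxed libraries, against 38.9 to 66.6 CPM (median 48.8) in VavCre floxed libraries (-0.88 ± 0.21, adjusted p = 0.0179), and Ifnar1, a chain of the type I interferon receptor, at 78.5 to 166 CPM (median 114) in MxCre floxed libraries, against 142 to 241 CPM (median 180) in VavCre floxed libraries (-0.63 ± 0.18, adjusted p = 0.0354).

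The direction of the interferon response genes turned on MxCre titled A2 floxed 3. Without MxCre titled A2 floxed 3 and titled A1b floxed 2, 4 members were higher and 6 lower. Without MxCre titled A2 floxed 3 alone, 3 were higher and 6 lower. The count was 0 without VavCre Arid1b floxed 3, 3 without VavCre Arid1b floxed 1, 1 without VavCre Arid2 floxed 1, 2 without VavCre Arid2 floxed 2 or MxCre titled A1b floxed 1, and 10 without MxCre titled A2 floxed 1, all higher. The called members of the interferon signalling list numbered 1 without VavCre Arid1b floxed 3, 8 without MxCre titled A2 floxed 3 (7 of them lower) and 5 without MxCre titled A1b floxed 3.

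Promoters of Socs1, Oas1a and Ddx58 are shown because each holds a pair of TTTC words 2 bases apart, the core of the interferon-stimulated response element, on one strand or the other. The motif was found in 1131 of 32851 RefSeq windows (3.44%), and of the 3 leading interferon response genes only Iigp1 had no window. The windows on GRCm38.p6 are chr16:10785487-10785786 on the minus strand and chr5:120907476-120907775 on the minus strand, each with 2 overlapping matches, and chr4:40239776-40240075 on the minus strand. Capitals mark the matches, 5′ to 3′ on the strand of the gene. The STAT element TTCNNNGAA, present in 8.3% of all windows, was found in that of Cish and not in those of Socs1 or Pim1.
Socs1: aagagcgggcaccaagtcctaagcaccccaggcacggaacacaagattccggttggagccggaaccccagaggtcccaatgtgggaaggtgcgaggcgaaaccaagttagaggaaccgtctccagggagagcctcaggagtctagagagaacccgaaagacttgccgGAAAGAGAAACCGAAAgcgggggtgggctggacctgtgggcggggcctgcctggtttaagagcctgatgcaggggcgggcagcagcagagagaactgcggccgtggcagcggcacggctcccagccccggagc
Oas1a: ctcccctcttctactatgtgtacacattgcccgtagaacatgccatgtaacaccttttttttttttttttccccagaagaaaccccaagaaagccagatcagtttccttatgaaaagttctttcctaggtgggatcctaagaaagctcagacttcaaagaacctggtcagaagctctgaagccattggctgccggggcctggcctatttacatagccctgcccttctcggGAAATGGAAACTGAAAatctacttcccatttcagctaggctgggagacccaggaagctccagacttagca
Ddx58: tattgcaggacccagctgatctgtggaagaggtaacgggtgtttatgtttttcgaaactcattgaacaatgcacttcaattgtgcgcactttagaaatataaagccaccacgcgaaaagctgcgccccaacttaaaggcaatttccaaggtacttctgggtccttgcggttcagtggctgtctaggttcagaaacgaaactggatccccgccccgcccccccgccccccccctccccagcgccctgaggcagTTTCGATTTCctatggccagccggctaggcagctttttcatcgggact

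Some markers of T and NK cells were higher in MxCre floxed libraries. Of 18 tested, 8 rose, where 6.04% of all genes did, 0 fell and 10 did not pass the test, with a median log2 fold change of 1.85 against 0.35 in the control comparison. Called members numbered 0 with the set as a random block, 4 with a term for libraries above 10 CPM of Kdm5d, and 3 either with the 12 floxed libraries alone or without the MxCre set titled A2. Cd3d, a chain of the T cell receptor complex, was at 1.41, 1.55 and 6.38 CPM in the MxCre floxed set titled A2 and 1.1, 2.43 and 1.2 CPM in that titled A1b, against 0.331, 0.443 and 0.24 CPM in VavCre Arid1b floxed and 0.469, 0.219 and 0.915 CPM in VavCre Arid2 floxed libraries. The groups did not overlap. Cd3d had a log2 fold change of 2.36 ± 0.47, adjusted p = 0.00795. Gzma, a protease that cytotoxic cells inject into their targets, was at 1.21, 1.92 and 1.66 CPM in the MxCre floxed set titled A2 and 2.79, 4.43 and 0.513 CPM in that titled A1b, against 0, 0.266 and 0.18 CPM in VavCre Arid1b floxed and 0.469, 0.0549 and 0.366 CPM in VavCre Arid2 floxed libraries, also without overlap, with 3.24 ± 0.74, adjusted p = 0.0153. Gzmb, a further such protease, was at 1.54 to 6.25 CPM (median 4.86) in MxCre floxed libraries, against 0.189 to 2.99 CPM (median 0.32) in VavCre floxed libraries, with 2.83 ± 0.57, adjusted p = 0.00864. The others were Cd3e (2.67, adjusted p = 0.0162), Cd3g (2.61, adjusted p = 0.017), Cd8a (2.83, adjusted p = 0.0227), Prf1 (2.74, adjusted p = 0.043) and Il2rb (2.16, adjusted p = 0.0187). Cd4 and Nkg7 did not pass the test (log2 fold change 1.16 and 0.93).

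The summed level of the T and NK list was 55.5 to 254 CPM in MxCre floxed libraries and 57.7 to 145 CPM in VavCre floxed libraries. The count of 8 was 3 without VavCre Arid1b floxed 3, and without both MxCre titled A2 floxed 3 and titled A1b floxed 2 it was 8 higher and 2 lower. In bulk RNA, fewer cells of a type and less RNA per cell cannot be told apart. Of 15 B lineage genes, 1 (6.67%) rose and 1 (6.67%) fell, where 6.04% of all genes rose and 3.21% fell. Cd79a of the B cell receptor rose, at 0.778 to 8.32 CPM (median 1.86) in MxCre floxed libraries, against 0.495 to 1.73 CPM (median 0.673) in VavCre floxed libraries (1.40, adjusted p = 0.0281). Rag2 of the recombinase fell, at 0 to 1.14 CPM (median 0.263) in MxCre floxed libraries, against 0.0521 to 4.63 CPM (median 2.12) in VavCre floxed libraries (-3.27, adjusted p = 0.0257). Among 10 megakaryocyte genes, Gp1bb, a chain of the platelet receptor for von Willebrand factor, rose (2.35, adjusted p = 0.0227), and 0 of 13 genes of mast cells, basophils and eosinophils and 0 of 13 of stroma and endothelium passed the test. Leaving out single floxed libraries gave 0 to 4 called B lineage genes.

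Red cell genes were carried by a pair of libraries. Of 11 erythroid genes, 3 (27.3%) rose and 0 fell, where 6.04% of all genes rose and 3.21% fell. The median log2 fold change of the list was 3.89, and 1.71 in the control comparison. Alas2, the first enzyme of haem synthesis in red cells, was at 1.16, 0.921 and 49.8 CPM in the MxCre floxed set titled A2 and 1.1, 16.2 and 0.94 CPM in that titled A1b, against 0.898, 0.886 and 2.46 CPM in VavCre Arid1b floxed and 0.755, 1.62 and 0.915 CPM in VavCre Arid2 floxed libraries. MxCre titled A2 floxed 3 and titled A1b floxed 2 stood alone, the other 4 MxCre floxed libraries lying within the VavCre floxed range. Its log2 fold change of 3.04 ± 0.92, adjusted p = 0.0447 was -0.28 without the pair, and the calls of Alas2, Klf1 and Car2 ended without either. The list had 0 called members without VavCre Arid1b floxed 1 or 3, any 1 of the VavCre Arid2 floxed libraries or MxCre titled A1b floxed 2, 1 without VavCre Arid1b floxed 4 or MxCre titled A2 floxed 3, and 7 without MxCre titled A1b floxed 3. Klf1 is the master regulator of red cell genes (1.44, adjusted p = 0.0446) and Car2 a carbonic anhydrase (4.35, adjusted p = 0.0281). Summed defining erythroid markers, with haemoglobins, Alas2 and Klf1 among them, were 2.873 to 558 CPM in MxCre floxed libraries, with a median of 4.295, against 4.761 to 22.22 CPM with a median of 6.888 in VavCre floxed libraries. Their part in the granule result was not tested.

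Small structured RNAs followed a single library. Of 6 tested, 3 (50%) rose, namely Rn45s, Rmrp and Rpph1, and 0 fell, where 6.04% of all genes rose and 3.21% fell. Rn45s was at 2737, 3400 and 153700 CPM in the MxCre floxed set titled A2 and 3132, 3837 and 2975 CPM in that titled A1b, against 3053, 2653 and 2203 CPM in VavCre Arid1b floxed and 2857, 2517 and 2137 CPM in VavCre Arid2 floxed libraries. Without MxCre titled A2 floxed 3, 0 of the 6 were called, and the log2 fold change of Rn45s was 0.29. Single other libraries ended calls as well, with 0 left without VavCre Arid1b floxed 3 or VavCre Arid2 floxed 1 or 2, and 1 left without VavCre Arid1b floxed 4 or VavCre Arid2 floxed 3.

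Of 25 monocyte and macrophage genes, 0 passed the test, with a median log2 fold change of -0.32, and Cd68, a macrophage lysosomal protein, was at 39.9 to 172 CPM (median 101) in MxCre floxed libraries, against 151 to 255 CPM (median 208) in VavCre floxed libraries (-0.97, adjusted p = 0.0535). All 21 class II and dendritic cell genes had negative log2 fold changes (median -0.68). Of these 2 fell, where 3.21% of all genes did, and 0 were called with the set as a random block. H2-DMa, which loads peptides onto class II molecules, was at 43.96, 63.5 and 86.3 CPM in the MxCre floxed set titled A2 and 50.9, 129 and 56.1 CPM in that titled A1b, against 128, 192 and 168 CPM in VavCre Arid1b floxed and 87.8, 92.1 and 161 CPM in VavCre Arid2 floxed libraries, with -0.93 ± 0.23, adjusted p = 0.0215. Siglech, a surface receptor of plasmacytoid dendritic cells, was at 0.13 to 1.32 CPM (median 0.722) in MxCre floxed libraries, against 0.275 to 24.98 CPM (median 3.32) in VavCre floxed libraries, with -2.81 ± 0.82, adjusted p = 0.0389. All 12 MHC class I genes were also negative (median -0.50), and 0 passed the test, the smallest p being that of the peptide transporter gene Tap2 (-0.51, adjusted p = 0.0718). Without MxCre titled A2 floxed 3 the called members of the class II list numbered 7, all lower. They numbered 0 without VavCre Arid1b floxed 3 or MxCre titled A2 floxed 1, and 1 without VavCre Arid1b floxed 4, VavCre Arid2 floxed 1 or 2, MxCre titled A2 floxed 2 or titled A1b floxed 1.

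Of 18 adhesion and homing genes, 1 (5.56%) rose and 2 (11.1%) fell, where 6.04% of all genes rose and 3.21% fell. The median of the list was -0.69. Itga4, a chain of the integrin VLA-4 that holds blood progenitors in marrow, was at 302, 371 and 766 CPM in the MxCre floxed set titled A2 and 369, 163 and 485 CPM in that titled A1b, against 889, 793 and 758 CPM in VavCre Arid1b floxed and 626, 1059 and 629 CPM in VavCre Arid2 floxed libraries. Itga4 had a log2 fold change of -0.97 ± 0.24, adjusted p = 0.021. Cxcr4, the receptor for the marrow chemokine Cxcl12, was at 197 to 463 CPM (median 251) in MxCre floxed libraries, against 395 to 570 CPM (median 462) in VavCre floxed libraries, with -0.70 ± 0.18, adjusted p = 0.0225. Cxcr2, which draws mature neutrophils out of marrow, was at 3.83 to 78.2 CPM (median 10.5) in MxCre floxed libraries, against 0.753 to 6.76 CPM (median 3.03) in VavCre floxed libraries, with 2.66 ± 0.74, adjusted p = 0.0331. Called members numbered 0 without VavCre Arid1b floxed 3 or VavCre Arid2 floxed 2, 1 without MxCre titled A2 floxed 1 or 2, 5 without MxCre titled A1b floxed 3 and 8 without MxCre titled A2 floxed 3, 7 of them lower. Of 21 lysosomal genes, 9.52% rose and 4.76% fell, where 6.04% of all genes rose and 3.21% fell. Cd63 and the protease gene Ctsd (0.41, adjusted p = 0.0409) rose, and Ctsa, which protects lysosomal enzymes, fell (-0.64, adjusted p = 0.0338). Of these 3, 1 was called without VavCre Arid1b floxed 3, VavCre Arid2 floxed 1 or 2 or MxCre titled A2 floxed 1.

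Most genes of the MLL-fusion target list did not pass the test. Of 19 genes of this list, which also holds the cofactor gene Men1, 0 rose and 2 (10.5%) fell. Of all genes, 6.04% rose and 3.21% fell. Pbx3, a partner of Hoxa9 and Meis1 on DNA, was at 17.2, 36.2 and 202 CPM in the MxCre floxed set titled A2 and 14.3, 8.6 and 10.2 CPM in that titled A1b, against 97.6, 155 and 112 CPM in VavCre Arid1b floxed and 251, 205 and 207 CPM in VavCre Arid2 floxed libraries. MxCre titled A2 floxed 3 was the exception, within the VavCre floxed range. Pbx3 had a log2 fold change of -2.42 ± 0.49, adjusted p = 0.00859, with the call kept whichever floxed library was left out. Men1, menin, the cofactor that tethers MLL to its targets, was at 43.6, 46.3 and 46.4 CPM in the MxCre floxed set titled A2 and 48.4, 45.1 and 44.5 CPM in that titled A1b, against 71.3, 76.1 and 65.2 CPM in VavCre Arid1b floxed and 68.8, 75.2 and 56.5 CPM in VavCre Arid2 floxed libraries. It was lower in MxCre floxed libraries without overlap (-0.59 ± 0.17, adjusted p = 0.0411), but the call ended in 10 of the 12 repeats that left out a floxed library, all but those without VavCre Arid2 floxed 3 or MxCre titled A2 floxed 3. Hoxa9 averaged 244 ± 142 CPM in MxCre floxed and 153 ± 102 CPM in VavCre floxed libraries (log2 fold change 0.94, adjusted p = 0.136) and Meis1 85.5 ± 41.1 CPM in MxCre floxed and 95.3 ± 12.3 CPM in VavCre floxed libraries (-0.16, adjusted p = 0.738), as SD with n = 6 each.

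Of 17 stem and progenitor genes, 3 (17.6%) rose and 1 (5.88%) fell, where 6.04% of all genes rose and 3.21% fell. Prom1, the surface protein CD133, was at 91.4, 55.6 and 49.97 CPM in the MxCre floxed set titled A2 and 24.5, 14.8 and 10.2 CPM in that titled A1b, against 2.6, 0.664 and 5.22 CPM in VavCre Arid1b floxed and 5.52, 0.658 and 31.3 CPM in VavCre Arid2 floxed libraries. The groups overlapped at VavCre Arid2 floxed 3. Prom1 had a log2 fold change of 2.48 ± 0.72, adjusted p = 0.0382. Ikzf2, the Ikaros relative Helios, averaged 140 ± 84.7 CPM in MxCre floxed and 35.95 ± 55.6 CPM in VavCre floxed libraries (SD, n = 6 each) and had a log2 fold change of 3.33, adjusted p = 0.0493. Tal1, a regulator of red cell and stem cell genes, was at 0 to 10.5 CPM (median 0.263) in MxCre floxed libraries, against 0.0781 to 0.274 CPM (median 0.152) in VavCre floxed libraries (3.33, adjusted p = 0.0403), and lost its call without MxCre titled A2 floxed 3 or titled A1b floxed 2 among others. Sox4, a transcription factor that drives progenitor growth, was at 4.77 to 48.4 CPM (median 14.8) in MxCre floxed libraries, against 9.25 to 106 CPM (median 60.5) in VavCre floxed libraries (-1.73, adjusted p = 0.0485). The count of 4 was 0 without VavCre Arid1b floxed 1, VavCre Arid1b floxed 3, VavCre Arid2 floxed 1 or VavCre Arid2 floxed 2, 1 without VavCre Arid1b floxed 4, MxCre titled A2 floxed 2 or titled A1b floxed 1, and 2 without MxCre titled A2 floxed 1.

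Of 18 apoptosis regulators, 3 (16.7%) rose and 0 fell (median -0.15), where 6.04% of all genes rose and 3.21% fell. Bcl2l1, which encodes the survival protein BCL-XL, was at 44.3, 37.2 and 36.04 CPM in the MxCre floxed set titled A2 and 28.5, 42.02 and 33.7 CPM in that titled A1b, against 19.8, 20.4 and 21.9 CPM in VavCre Arid1b floxed and 23.1, 21.5 and 30.9 CPM in VavCre Arid2 floxed libraries. VavCre Arid2 floxed 3 reached into the MxCre floxed range. Bcl2l1 had a log2 fold change of 0.69 ± 0.16, adjusted p = 0.0144, with the call kept in all 12 repeats that left out a floxed library. Bcl2a1b, a survival gene of a family of near-identical copies whose counts are uncertain, was at 4.02 to 21.6 CPM (median 4.82) in MxCre floxed libraries, against 0.686 to 2.59 CPM (median 1.41) in VavCre floxed libraries (2.49, adjusted p = 0.0149). Called apoptosis regulators numbered 1 without VavCre Arid1b floxed 3 and 7 without MxCre titled A2 floxed 3, 4 of them higher. Fas, a death receptor and p53 target, was the 1 gene called of 17 p53 targets, at 1.04 to 12.7 CPM (median 8.86) in MxCre floxed libraries, against 0.137 to 5.41 CPM (median 1.75) in VavCre floxed libraries (2.25, adjusted p = 0.0159).

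Of 24 glycolysis and hypoxia genes, 3 (12.5%) rose and 3 (12.5%) fell, where 6.04% of all genes rose and 3.21% fell. Vegfa, the angiogenic factor, was at 110, 95.7 and 46.4 CPM in the MxCre floxed set titled A2 and 132, 46.4 and 54.9 CPM in that titled A1b, against 22.5, 10.3 and 24.5 CPM in VavCre Arid1b floxed and 23.2, 16.6 and 55.5 CPM in VavCre Arid2 floxed libraries, and rose by 1.72 ± 0.35, adjusted p = 0.00903, with the call kept in all 12 repeats. Slc2a3, a glucose transporter, was at 11.6 to 69.8 CPM (median 26.5) in MxCre floxed libraries, against 3.44 to 10.5 CPM (median 7.29) in VavCre floxed libraries, with 2.05 ± 0.52, adjusted p = 0.0221, and Ankrd37, a hypoxia target, is among the falls given above. Called members numbered 2 without VavCre Arid1b floxed 3 and 3 without VavCre Arid1b floxed 4, VavCre Arid2 floxed 1 or 2 or MxCre titled A2 floxed 2. All 32 cell cycle genes had positive log2 fold changes, with a median of 0.20 against -0.25 in the control comparison. Of these 3 (9.38%) passed the test, close to the 6.04% of all genes that rose, and 0 did with the set as a random block, with the replicate block or with the 12 floxed libraries alone. The 3 were Cdk1 (0.61, adjusted p = 0.0273), Ube2c (0.65, adjusted p = 0.03) and Aurka (0.52, adjusted p = 0.0473), and each lost its call without 7 or more of the 12 floxed libraries in turn. The count of 3 fell to 0 without VavCre Arid1b floxed 3 or 4, VavCre Arid2 floxed 1 or 3 or MxCre titled A2 floxed 1 or 2, and was 1 without VavCre Arid1b floxed 1, VavCre Arid2 floxed 2 or MxCre titled A1b floxed 2. It was 9 without MxCre titled A2 floxed 3 and 5 without MxCre titled A1b floxed 3, all higher.

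Single genes were called in other lists: Il1rn, the interleukin 1 receptor antagonist (2.48, adjusted p = 0.0225), of 19 NF-kB and inflammation genes, Ier3, an immediate-early survival gene (1.78, adjusted p = 0.00548), of 19 immediate-early genes, Sqle, an enzyme of cholesterol synthesis (1.41, adjusted p = 0.0314), of 24 genes of cholesterol and fatty acid synthesis, and Uqcrb of respiratory complex III (0.53, adjusted p = 0.026) of 30 nuclear genes of oxidative phosphorylation. Snhg11 (3.36, adjusted p = 0.0159) was called of 5 long nuclear RNAs and Hist1h1c (1.32, adjusted p = 0.0253) of 26 replication-dependent histone genes. Of all genes tested, 6.04% rose. By edgeR, 0 genes passed the test among 15 SWI/SNF core subunits, 9 BAF, PBAF and ncBAF subunits, 18 genes of MYC and ribosome biogenesis, 24 ribosomal proteins and 11 heat shock genes. The smallest p among the subunits belonged to Smarcc2 (log2 fold change -0.33, adjusted p = 0.0801) and Dpf2 (-0.20, adjusted p = 0.0854).

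**Figure D4:**
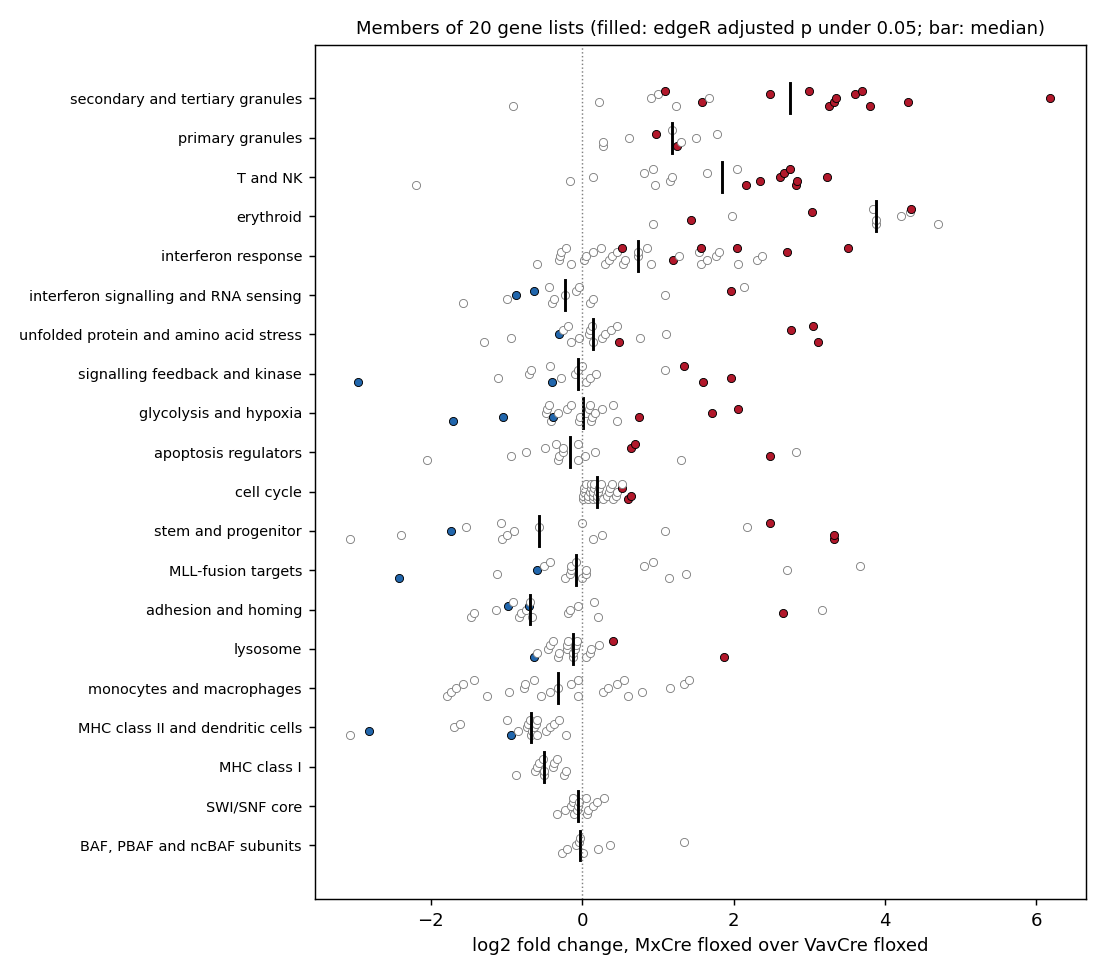
Log2 fold change of MxCre floxed over VavCre floxed (x axis) of each tested member of 20 gene lists (rows). Filled points passed the test, red for higher and blue for lower in MxCre floxed libraries, open points did not, and the bar is the list's median, 2.74 for secondary and tertiary granules and -0.68 for MHC class II and dendritic cells.

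The same comparison in the controls asked how far the Cre line and pIpC alone go with such differences. Between 6 MxCre control and 6 VavCre control libraries, 1 gene was called (0.00709% of 14099) and 1636 had an unadjusted p under 0.05 by edgeR, while DESeq2 called 60 and voom with sample weights 2292 (1251 higher and 1041 lower). Of the 1304 genes called in the floxed comparison, 351 (26.92%) had the same sign in the control comparison. The share over all genes was not computed, but over all genes tested the log2 fold changes of both comparisons had a Pearson correlation of -0.38. The median absolute log2 fold change of the 1304 was 1.08 between floxed groups and 0.29 between control groups. These genes were picked by the floxed comparison, so that their larger change there was set by the choice.

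The difference between the floxed and the control comparison was itself called in 1251 genes (8.87%), 660 higher (4.68%) and 591 lower (4.19%), and 778 genes were called both in it and in the floxed comparison. Cd63 showed the smallest p. In controls it was at 157 to 293 CPM (median 205) in MxCre control libraries and 308 to 463 CPM (median 433) in VavCre control libraries, the opposite order of its floxed groups, and the difference of log2 fold changes was 2.75, adjusted p = 0.00063. Zfp318 was at 25.9 to 52.9 CPM (median 49.5) in MxCre control libraries and 21.3 to 37.9 CPM (median 29.5) in VavCre control libraries, also in the opposite order, with a difference of -1.93, adjusted p = 0.00254. Ints4 was at 64.02 to 82.8 CPM (median 79.7) in MxCre control libraries and 60.1 to 79.2 CPM (median 63.4) in VavCre control libraries, with a difference of -1.03, adjusted p = 0.0016. For Nudt4 the difference was 1.11, adjusted p = 0.0016, for Ppp2cb 1.11, adjusted p = 0.00224, and for Plxnb2 -3.93, adjusted p = 0.0166. Plxnb2 was at 72.99 to 218 CPM (median 110) in MxCre control libraries and 8.67 to 116 CPM (median 24.8) in VavCre control libraries. The order of its medians, too, was turned round. The control groups overlapped for Zfp318 and Plxnb2. In the control comparison itself Cd63, Zfp318 and Plxnb2 did not pass the edgeR test (adjusted p = 0.316, 0.379 and 0.384). The test of the difference does not show that their order was reversed in controls.

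By list, the difference was called for 3 of 18 secondary and tertiary granule genes and for 5 of 35 interferon response genes, all higher. Of all genes, 4.68% were called higher and 4.19% lower in the difference. Between floxed groups, 3 interferon response genes were called higher and 6 lower without MxCre titled A2 floxed 3. The difference was not counted by list with libraries left out. For 5 of 25 monocyte and macrophage genes the difference was called, all lower. The monocyte median was -0.32 between floxed groups and 0.79 between control groups. The median of the MHC class II and dendritic cell list was -0.68 between floxed groups and 1.07 between control groups, with 2 of 21 members called, both lower. For Ltf, S100a8, S100a9 and Prtn3 the difference did not pass the test (adjusted p = 0.065, 0.0582, 0.0544 and 0.0506). The count of 1251 moved by over 1.5 times with 17 of the 24 libraries left out in turn. Among floxed libraries it was 383 without VavCre Arid1b floxed 3, 682 without VavCre Arid1b floxed 4, 645 and 627 without VavCre Arid2 floxed 1 and 2, 527, 529 and 2900 without MxCre titled A2 floxed 1, 2 and 3, and 1983 without MxCre titled A1b floxed 3. Among controls it was 507 and 581 without MxCre titled A2 control 1 and 2, 436, 2247 and 446 without MxCre titled A1b control 1, 2 and 3, 825 and 553 without VavCre Arid1b control 1 and 3, and 518 and 508 without VavCre Arid2 control 1 and 2.

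**Figure D5:**
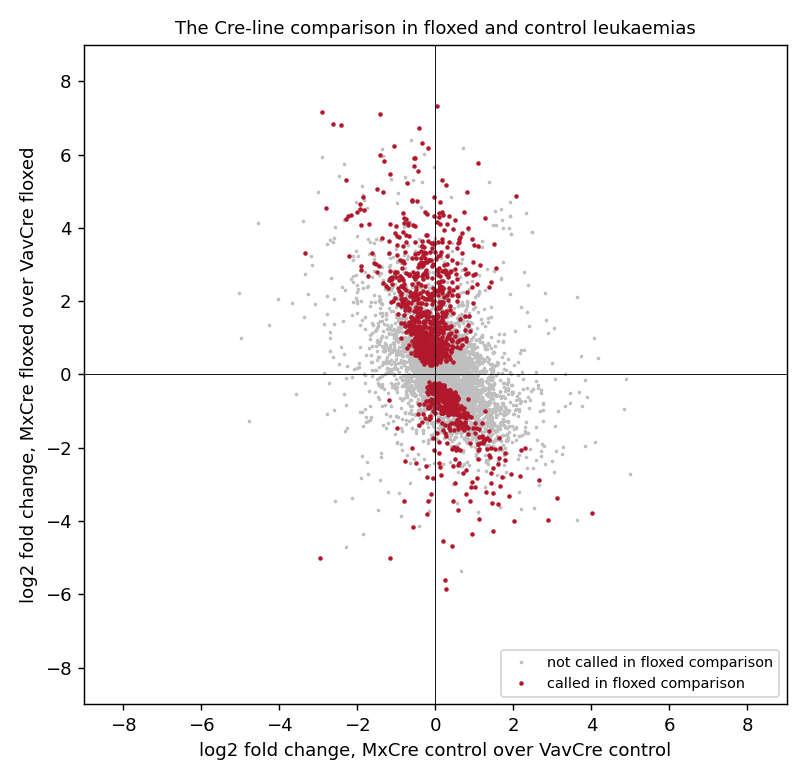
Log2 fold change of each of the 14099 genes tested in MxCre floxed over VavCre floxed libraries (y axis) and in MxCre control over VavCre control libraries (x axis). Red points are the 1304 genes called in the floxed comparison, and of these 351 have the same sign on both axes. Over all genes shown the Pearson correlation between the axes is -0.38.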

How the data were processed

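The 24 RNA-seq libraries of mouse leukaemia were grouped by title. Per the labels' protocols, TRIzol was used for total RNA, beads for poly(A) selection and a directional kit for libraries. The submitters' processing notes name STAR and mm10. The counter, annotation, strand setting and versions were not given in the sources at hand, so overlapping genes and near-identical copies are uncertain. The authors deposited raw counts, as whole numbers, for 24046 genes in 24 libraries, with 2194 genes at 0 throughout.

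Counts were analysed with edgeR 4.0.16 in R 4.3.3. The filterByExpr function (minimum count 10, total 15) kept 14099 genes, library sizes were scaled by TMM, and a robust quasi-likelihood fit over 8 group means of 3 libraries left 16 residual degrees of freedom, with a common biological coefficient of variation of 0.4002. Contrasts were the mean of both MxCre floxed groups minus the mean of both VavCre floxed groups, the same in controls, their difference, and each pair of sets. A gene was called where its p, adjusted by Benjamini-Hochberg over all genes tested, was under 0.05. Level ranges and means are TMM-scaled CPM, and log2 fold changes are given with their SE.

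Named genes were Arid1b and Arid2, the 10 highest and 10 lowest fold changes among called genes with no overlap and 5 CPM or more on average, the up to 3 called members with the smallest p of each list with 2 or more called, the member with the smallest p of other lists, the 5 smallest p of the difference, and the genes called in all 4 pairs, up to 8. Pseudogenes, antigen receptor segments and predicted genes were not eligible by fold change or difference. Ikzf1, Mx1, S100a8 and S100a9, and list members given only with a fold change, were added after their values were seen. Some genes are not reported here. The members and lists were chosen with earlier results of these data known. Alternatives were DESeq2 1.42.0, voom in limma 3.58.1, other filters, scalings, blocks and left-out libraries. Totals of 12069153 to 38315410 counts limit the precision of low genes, and intervals were not computed for them.

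Promoter windows and gene positions are from RefSeq on GRCm38.p6, and exon lengths from GENCODE M21. No 2 libraries of a group were alike within counting noise.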

Additional observations from a re-analysis of the deposited data

Results flagged for a closer look

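A library far from the rest of its group of 6 was looked for in the levels of the named genes on a log2(CPM + 0.1) scale and in the share of Rn45s, in 186 groups, of which 12 had one. About 1 in 20 groups has one by chance. MxCre titled A2 floxed 3 was far from the other MxCre floxed libraries 5 times. It was high for Rn45s (153700 CPM, 13.6% of counts), Rpph1 (219 CPM) and Rmrp (182 CPM), and low for Bai1 (0.90 CPM). MxCre titled A1b floxed 2 was low for Arid1b (55.7 CPM against 169 to 262 in the other MxCre floxed libraries). MxCre titled A1b floxed 1 was low for Siglech (0.13 CPM), titled A1b floxed 3 was low for Chac1 (0.77 CPM), and titled A2 floxed 1 was high for Slc7a11 (6.88 CPM). Among VavCre floxed libraries, VavCre Arid2 floxed 3 was low for Sox4 (9.25 CPM) and high for Bcl2l1 (30.9 CPM), and VavCre Arid2 floxed 1 was the only one with reads of Ear6 (0.18 CPM).

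The comparison of Cre lines differed between floxed and control leukaemias, by the test of the difference in edgeR, for 1251 genes (8.87% of those tested). It did so for 54 of 92 named genes, 33 with a positive and 21 with a negative difference. Most named genes were picked by the floxed comparison and 5 by the difference itself, so that this share was raised by the choice. Values are the log2 fold change of MxCre floxed over VavCre floxed minus that of MxCre control over VavCre control, each with an adjusted p under 0.05. Xist, the transcript of the inactive X chromosome, was called as well, at -6.19, and is not among the 92. Largest among the positive ones were Wdr65 7.14, Bai1 6.63, Rassf10 6.43, Retnlg 6.38, Thbs1 4.83, Stfa2 4.58, Iigp1 4.34, Mmp9 4.03, Bcl2a1b 3.83, Asns 3.79 and Snhg11 3.72. Next came Slc7a11 3.35, Chac1 3.21, Il1rn 2.94, Slc2a3 2.90, Ddx58 2.86, Cd63 2.75, Gzmb 2.67, Fas 2.46, Socs1 2.32, Ier3 2.24, Vegfa 2.09 and Oas1a 1.97. Smaller positive differences were those of Cish 1.84, Hist1h1c 1.78, Srgn 1.38, Nudt4 1.11, Ppp2cb 1.11, Bcl2l1 0.89, Cdk1 0.88, Aurka 0.81, Uqcrb 0.78 and Ctsd 0.61. Negative differences were Plxnb2 -3.93, Siglech -3.89, Il31ra -3.65, Frmd4b -3.58, Il6st -3.56, Gpr124 -3.45, Slc44a1 -3.05, Ankrd37 -2.82, Cped1 -2.63, Thbd -2.55 and Zfp318 -1.93. The remaining ones were Acss1 -1.88, Cd68 -1.76, H2-DMa -1.23, Ifnar1 -1.19, Itga4 -1.19, Mavs -1.03, Ints4 -1.03, Ctsa -0.96, Cxcr4 -0.94 and Ikzf1 -0.87.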

How the results depend on the processing

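Of 2865 repeats of the 96 named genes over 30 alternatives, 2085 kept their direction and side of the threshold, 725 lost the call, 43 gained it and 12 turned round. Genes called between floxed groups numbered 2261 with DESeq2, 2936 with voom and sample weights and 275 with the 12 floxed libraries alone. With those 12 and 1 mean per Cre line they numbered 162. By voom on the same 12, with the set as a random block (estimated correlation 0.07), they numbered 15. They numbered 2777 without MxCre titled A2 floxed 3 and titled A1b floxed 2, and 3983 without titled A1b floxed 3 as well, the last chosen after seeing the data. Without a whole set they numbered 836 (MxCre titled A2), 216 (VavCre Arid1b) and 825 (VavCre Arid2). Between controls, 60 genes were called with DESeq2, 2292 with voom and 6 without the first 2 libraries named. For the difference it was 765 with no filter, 2370 with DESeq2, 4637 with voom, 3484 without these 2 libraries and 4588 without all 3. For all 4 pairs it was 0 with no filter, 68 with DESeq2, 15 with voom, 0 with floxed libraries alone, 31 with a term for Y-positive libraries and 48 without the 2 libraries. The replicate block gave 518 genes between floxed groups, 501 for the difference and 0 for all 4 pairs, but replicate numbers did not pair the libraries (correlation of same-numbered deviations -0.14 to 0.12 in 10 pairs, against -0.14 to 0.14 in 26 others). With 1 library left out, counts ran from 278 to 2601 between floxed groups, 1 to 3 between controls, 383 to 2900 for the difference and 0 to 28 for all 4 pairs. Log2 fold changes that turned round were those of Arid1b, at 0.00 with the replicate block, 0.19 without either the 2 or the 3 libraries (0.191 and 0.189), 0.03 after removal of the gene length trend (an alternative added after seeing the data), 0.009 without VavCre Arid1b floxed 3, 0.165 without MxCre titled A1b floxed 2 and 0.151 without the VavCre Arid2 set (-0.187 to 0.165 with 1 library left out), of Alas2, at -0.281 without the 2 and -0.24 without the 3 libraries, of Rmrp, at -0.004 without the 3, of Xist, at 0.394 with the Y term, and of Mx1, at 0.002 without the VavCre Arid1b set. Apart from what fewer libraries or genes in a fit bring, the cause was not tested. Low genes such as Gzma or Chac1 rest on few counts.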
